A study of Mus musculus with 8 samples.

Results

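The cullin-RING ligases and the adaptor genes that feed them were followed in the quadriceps of tumor-bearing and control mice. Symbols that begin with Cul, Klhl, Kbtbd or Kctd and a digit were taken from the gene count table. Of 77 such symbols, 65 had a summed count of at least 80 over the 8 libraries: 8 cullins, 32 KLHL genes, 8 KBTBD genes and 17 KCTD genes, of 53819 symbols in all. All 65 were counted deeply enough to be tested among 14070 genes. The least counted of them, Klhl4, had 136 counts in all, and the most counted symbol that was left out, Kctd19, had 28. The tumor group held 4 wild-type C57BL/6J mice that received 500000 cells of B0092, a head and neck squamous cell carcinoma line, injected subcutaneously at the neck. The control group held 4 wild-type C57BL/6J mice that received the PBS vehicle. All mice were 8 weeks old at the start, and muscle was taken on day 36, when tumor mice had lost about 10% of their weight. A single tumor line was used, each group of 4 mice gave 4 numbered libraries, and the sex of the animals is not stated in the labels.

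A cullin is the scaffold of a ubiquitin ligase: its C-terminal end holds a RING protein with the ubiquitin-charged enzyme, and its N-terminal end holds an adaptor that selects the substrate. Cul1 works with F-box proteins, Cul2 and Cul5 with elongins B and C, Cul3 with BTB domain proteins, and Cul4a and Cul4b with Ddb1. KLHL and KBTBD proteins join a BTB domain to Kelch repeats and serve Cul3, as do many KCTD proteins, which carry a BTB-like domain without Kelch repeats. Skeletal muscle makes several Kelch proteins of its own, and human mutations in KLHL40, KLHL41 and KBTBD13 cause nemaline myopathy, a disease of the thin filament.

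Levels are given as counts per 1000000 (CPM) on scaled library sizes. Libraries held 28436205 to 36139462 counts, with scaling factors from 0.896 to 1.22, the highest in tumor library 4. Muscle fibre markers, led by Myh4, summed to 92572 to 177730 CPM in tumor libraries and 144090 to 181050 CPM in controls. Of these 10 markers, 2 fell (20%, where 8.73% of all genes fell), Acta1 and Myh7, and none rose. Myh7 had 0.115 to 4.09 CPM in tumor mice and 1.48 to 2164 CPM in controls, with an overlap. Of 11 squamous epithelial markers, 7 had no count in any library, the keratins Krt5 and Krt14 among them. The list summed to 17.4 to 38.3 CPM in tumor mice and 7.38 to 10.6 CPM in controls, most of it from Trp63. Of 2 tested, Trp63 rose (50%, where 11% of all genes rose) and Sfn was not called. Trp63 had 15.7 to 36.2 CPM in tumor mice and was present in every control, at 6.27 to 9.40 CPM. Of 10 endothelial markers, 4 fell (40%, where 8.73% of all genes fell), and the list summed to 117 to 219 CPM in tumor mice and 205 to 310 CPM in controls. Satellite cell markers summed to 53.9 to 78.4 CPM in tumor mice and 29.9 to 31.9 CPM in controls. Most of this sum was Cdh15, at 45.2 to 70.0 CPM in tumor mice and 19.9 to 22.8 CPM in controls. Of 5 tested genes, Cdh15 rose (20%, where 11% of all genes rose) and Vcam1 fell (20%, where 8.73% of all genes fell). Pax7, Myf5 and Chodl were not called. Of 10 fibro-adipogenic markers, 3 fell (30%, where 8.73% of all genes fell): Col1a2, Col3a1 and Pi16. The other 7 were not called, and of these Pdgfra and Dcn had log2 fold changes just above 0 (0.13 and 0.04). The list summed to 617 to 1247 CPM in tumor mice and 850.5 to 1391 CPM in controls. Of 10 macrophage markers, Cd163 alone rose (10%, where 11% of all genes rose), at 8.21 to 12.7 CPM in tumor mice and 3.33 to 5.96 CPM in controls. The summed macrophage list overlapped, at 55.2 to 188 CPM in tumor mice and 74.0 to 130 CPM in controls. The sums of 6 neutrophil markers did not overlap, at 1.51 to 4.48 CPM in tumor mice and 0.198 to 1.34 CPM in controls. Of 2 tested, S100a8 rose (50%, where 11% of all genes rose) and Csf3r was not called. S100a8 rested on few counts, 12 to 71 in tumor libraries and 0 to 14 in controls, and its groups overlapped. Ly6g was at 0. Of 8 adipocyte markers, Car3 alone fell (12.5%, where 8.73% of all genes fell), at 470.5 to 563 CPM in tumor mice and 713 to 1458 CPM in controls. The other 7 overlapped between the groups and were not called. Adipoq, for example, had 3.39 to 76.5 CPM in tumor mice and 1.59 to 85.7 CPM in controls. Control library 4, with the least Adipoq of all (1.59 CPM), had 713 CPM of Car3, above every tumor library. Tumor library 2, with 76.5 CPM of Adipoq, had 544 CPM of Car3. The Car3 call was thus not shared by the other adipocyte markers, and its cell of origin was not tested. T cell markers were near 0 (at most 0.574 CPM in tumor mice and 0.595 CPM in controls). The part of these cell types in the results was not tested. In whole muscle, fewer cells of a type and less RNA per cell cannot be told apart. The Myh4 share of adult fast and slow myosin heavy chain counts was 80.3% in tumor library 2 and 64.6% in control library 4, against 88.5% or more in the other libraries of both groups.

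In tumor mice, 7 of the 65 genes rose and 6 fell (edgeR quasi-likelihood test, Benjamini-Hochberg adjusted p under 0.05 over all genes). That is 20.0% of the genes, where 19.8% of all 14070 genes were called (11% higher and 8.73% lower), so the share as a whole was close to the background. Cul1, Cul4b, Cul9, Klhl5, Klhl22, Klhl38 and Kctd9 rose. Kbtbd3, Kbtbd13, Klhl17, Klhl23, Klhl25 and Kctd12b fell. The falls were steeper: Kbtbd13, Klhl23, Kctd12b and Klhl25 fell at least 2-fold, and Klhl38 alone of the 7 rose that far. Large falls were also the more frequent over all 14070 genes, where 551 called genes fell at least 2-fold and 352 rose that far. The median log2 fold change was -0.15 over the 65 genes and 0.00 over all genes tested, with 23 genes above 0 and 42 below. In 14 genes the groups did not overlap (21.5%, where 25% of all genes did not), and 12 of these were called. Fewer were called without some single libraries: 5 of 65 without control library 1 (7.69%, all genes 7.75%), 7 without control library 2 (10.8%, all genes 9.58%), 7 without control library 3 (10.8%, all genes 12.9%) and 6 without tumor library 3 (9.23%, all genes 8.30%). With upper-quartile scaling 6 rose and 8 fell, and 43.0% of all called genes were higher in place of 55.8%.

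**Figure D1:**
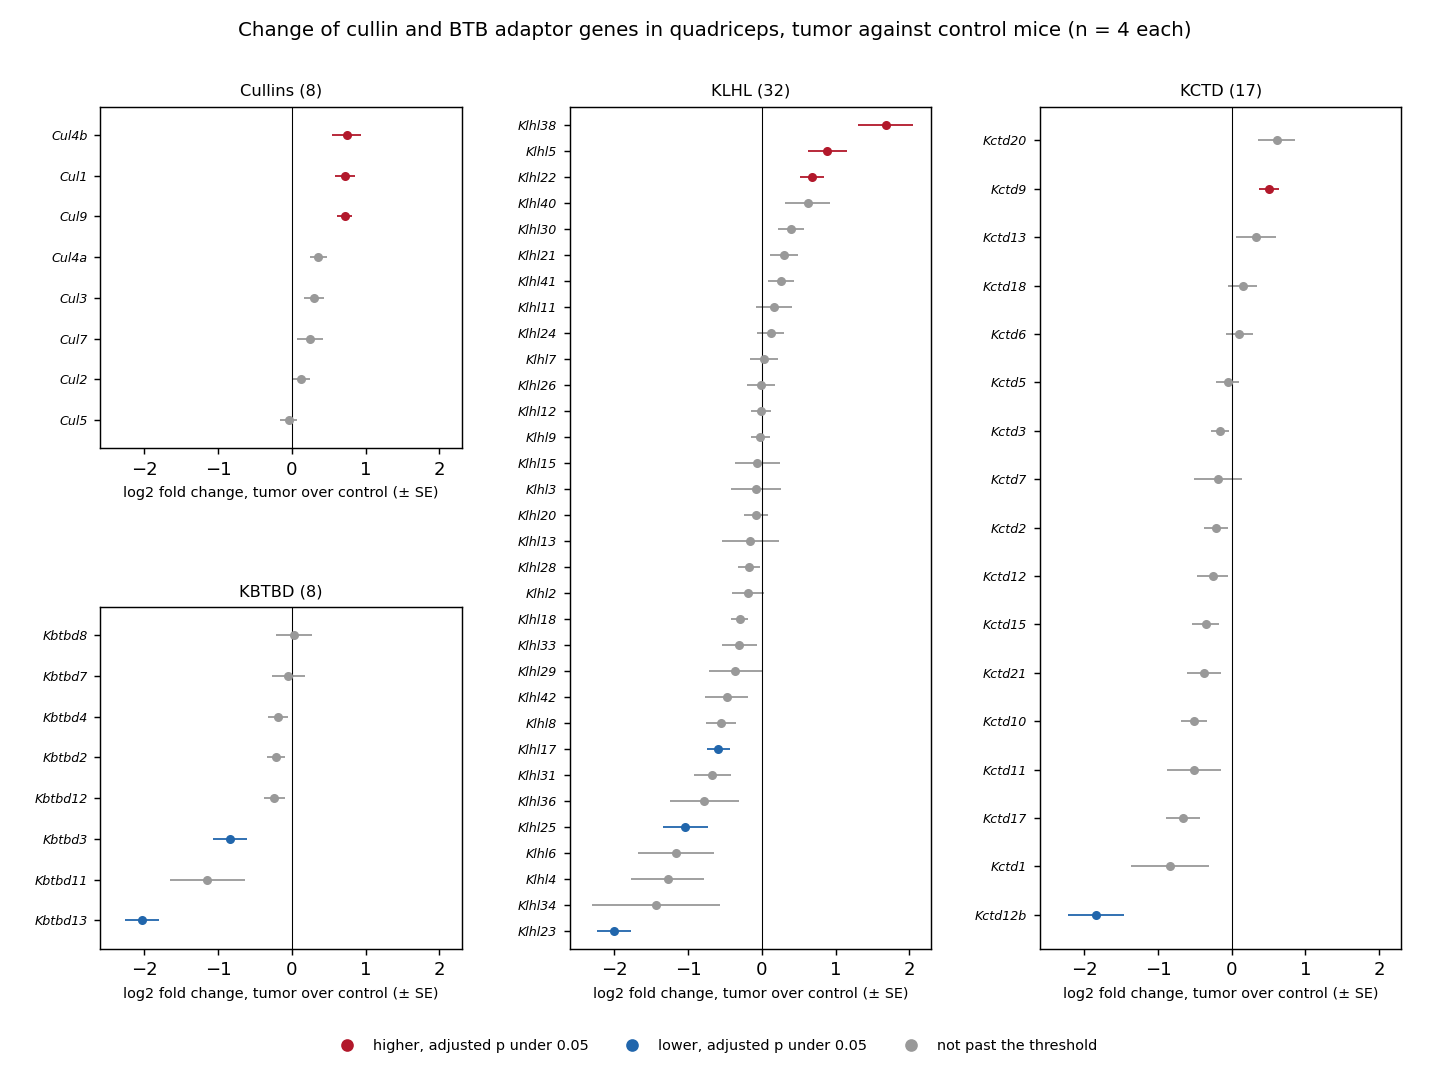
Log2 fold change, tumor over control, of the 65 genes in 4 panels by family, with bars of 1 standard error (n = 4 each). Red points are the 7 genes that rose, blue the 6 that fell and grey those not past the threshold. Cullins lie at or right of 0, from -0.04 for Cul5 to 0.74 for Cul4b, and KBTBD genes reach from -2.03 for Kbtbd13 to 0.03 for Kbtbd8.

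Promoter sequence is shown for 4 called genes, the steepest falls of a KBTBD and a KLHL gene, the rise with the smallest p, and a fall with repeated matches to a motif searched. Each is the stretch of 250 bases before a RefSeq transcription start, read 5′ to 3′ on the strand of the gene; Klhl23 has 3 starts in the table, and for the one shown, the first bases after the start were found in a GENCODE transcript of the gene. Capitals mark matches, on either strand, to TGACNNNGC (the core of the antioxidant response element, its N bases left in lower case) or AGAACA (an arm of the glucocorticoid response element).
Kbtbd13 (GRCm38.p6, chr9:65391653-65391902, minus strand): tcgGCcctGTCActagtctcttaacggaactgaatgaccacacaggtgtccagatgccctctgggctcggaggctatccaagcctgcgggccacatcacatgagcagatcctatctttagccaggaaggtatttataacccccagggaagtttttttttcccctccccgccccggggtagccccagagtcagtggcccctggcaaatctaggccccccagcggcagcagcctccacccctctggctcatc
Klhl23 (GRCm38.p6, chr2:69822120-69822369, plus strand): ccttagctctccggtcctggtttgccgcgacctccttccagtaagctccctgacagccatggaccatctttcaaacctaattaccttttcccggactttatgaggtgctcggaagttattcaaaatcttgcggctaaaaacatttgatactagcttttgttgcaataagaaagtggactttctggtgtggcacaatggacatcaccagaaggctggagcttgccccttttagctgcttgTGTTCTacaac
Klhl25 (GRCm38.p6, chr7:75848088-75848337, plus strand): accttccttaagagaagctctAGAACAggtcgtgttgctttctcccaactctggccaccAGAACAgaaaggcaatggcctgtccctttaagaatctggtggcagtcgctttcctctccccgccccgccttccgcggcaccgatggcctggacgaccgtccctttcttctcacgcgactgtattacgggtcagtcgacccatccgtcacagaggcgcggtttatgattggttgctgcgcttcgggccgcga
Cul9 (GRCm38.p6, chr17:46546389-46546638, minus strand): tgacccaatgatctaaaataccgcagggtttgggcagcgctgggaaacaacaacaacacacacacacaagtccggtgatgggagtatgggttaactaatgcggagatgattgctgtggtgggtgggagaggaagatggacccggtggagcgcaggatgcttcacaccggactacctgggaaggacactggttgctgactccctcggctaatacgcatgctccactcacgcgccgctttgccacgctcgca

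Motifs were searched in the same window of all 32851 promoters in the table, of which 75 belonged to 54 of the 65 genes. TGACNNNGC was in 14.7% of the 75 windows and 10.2% of all. Counted by gene over any start, it was in 10 of the 54 genes and in 3 of the 10 called genes with a promoter. These were Kbtbd3, Kbtbd13 and Klhl17, which fell, as did Klhl23 and Klhl25, which had no match. The 2 windows of Kbtbd3 overlap and hold the same match. A share by gene was not counted over all promoters. AGAACA was in 14.7% of the 75 and 16.1% of all. By gene it was in 10 of the 54, and among called genes in Klhl5, Klhl23 and Klhl25. CAGCTG, an E-box of the myogenic factors, was in 16.0% of the 75 and 13% of all, and among called genes in Klhl5. GTAAACA, the core bound by FOXO factors, was in 4.00% of the 75 and 3.17% of all, and in 0 of the 10 called genes. These matches describe letters in a window, and no binding was measured.

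Among the cullins, 3 of 8 rose and none fell by the edgeR test. An unadjusted p under 0.05 was found in 5 of the 8, and in 4924 of all 14070 genes. The share higher was 37.5%, where 11% of all genes rose, and the median log2 fold change was 0.33. The summed level of the 8 cullins was 779 to 892 CPM in tumor libraries and 623 to 735 CPM in control libraries. Cul9, a large cytoplasmic cullin known to bind p53, had 41.4, 44.1, 44.4 and 38.2 CPM in the tumor libraries and 23.9, 25, 25.1 and 28.3 CPM in the controls. Every tumor library lay above every control, a rise of 1.64-fold (log2 fold change 0.71 ± 0.11, SE; adjusted p = 0.00399, edgeR). Cul1, the scaffold of the SCF ligases that take F-box proteins such as atrogin-1, had 99.3, 147, 132 and 118 CPM in tumor mice and 71.5, 76.9, 82.8 and 70.3 CPM in controls. The groups were again apart, with tumor library 1 closest to the controls, and the rise was 1.65-fold (log2 fold change 0.72 ± 0.14, adjusted p = 0.00916, edgeR). Cul4b had 10.5, 20.8, 15.6 and 15 CPM in tumor mice and 7.90, 9.16, 9.52 and 10.4 CPM in controls. Tumor library 1 exceeded the highest control only narrowly, and tumor library 2 was the highest (log2 fold change 0.74 ± 0.20, adjusted p = 0.0289, edgeR). Cul9 and Cul1 kept their calls without any 1 library, whereas the Cul4b call failed when control 1, 2 or 3, or tumor 2 or 3, was left out (0.0551 to 0.0932 for the adjusted p).

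The other cullins did not pass. Cul4a, the close relative of Cul4b, had 108, 130, 132 and 131 CPM in tumor mice and 89.8, 93.8, 104 and 103 CPM in controls. Its groups did not overlap and its log2 fold change was 0.36 ± 0.12 (adjusted p = 0.0544, edgeR), and with tumor library 1 left out it was called (adjusted p = 0.0313). Cul3, the scaffold that the BTB adaptors bind, had 368, 385, 417 and 338 CPM in tumor mice and 291, 322, 344 and 269 CPM in controls. Its lowest tumor value lay below its highest control value, and the log2 fold change was 0.30 ± 0.13 (adjusted p = 0.140, edgeR). Cul7 had 4.02 to 5.63 CPM in tumor mice and 3.91 to 4.77 CPM in controls (log2 fold change 0.25 ± 0.17). Cul2 had 46.8 to 60.2 CPM in tumor mice and 43.4 to 52.9 CPM in controls (log2 fold change 0.13 ± 0.12). Cul5 had 92 to 105 CPM in tumor mice and 89.4 to 113 CPM in controls, with a log2 fold change of -0.04 ± 0.11 that turned to 0.02 without control library 3.

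Ratios within a library do not depend on how libraries are scaled, and 5 were taken after the values were seen. Per 1000 counts of Cul5 there were 1078, 1403, 1427 and 1204 counts of Cul1 in tumor libraries and 799.8, 740.3, 734.7 and 751.6 in controls, so the scaffold of the F-box ligases outnumbered Cul5 in counts in every tumor mouse and in no control. Per 1000 counts of Cul4a there were 96.9, 160.2, 118 and 114 counts of Cul4b in tumor libraries and 88.0, 97.7, 91.3 and 100.2 in controls, and these overlapped through tumor library 1. Per 1000 counts of Klhl41 there were 15.3, 10.00, 9.45 and 4.75 counts of Kbtbd13 in tumor libraries and 54.3, 43.4, 39.8 and 45.2 in controls. The ratio of Kbtbd13 to Klhl41 was lower in every tumor library than in any control, and both genes are linked to nemaline myopathy. Per 1000 counts of Klhl31 there were 326, 550.5, 433 and 300 counts of Klhl38 in tumor libraries and 57.7, 46.1, 74.1 and 148 in controls, again without overlap. Per 1000 counts of Klhl31 there were 260.3, 425, 472 and 1530.0 counts of Klhl40 in tumor libraries and 243, 241, 196 and 244 in controls, with tumor library 4 far above the rest. Klhl31 was itself lower in tumor mice (log2 fold change -0.67, not called), which widens both ratios taken over it. Both counts in a ratio come from genes of unequal length, so a ratio shows the change between mice and not the relative number of molecules.

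**Figure D2:**
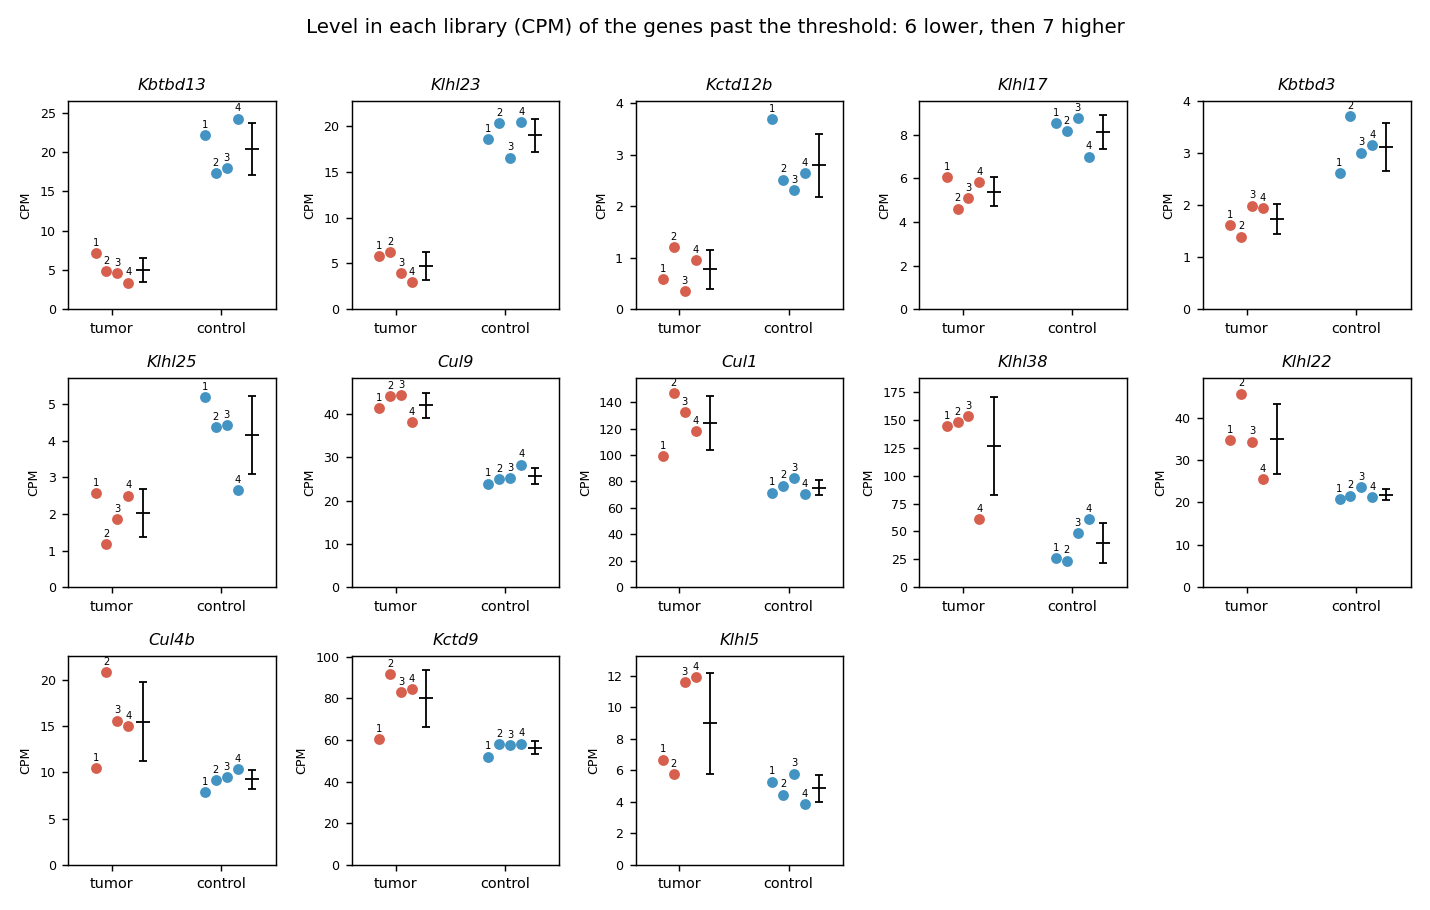
Level in CPM of the 13 called genes in each library, tumor left and control right, with the replicate number above each point and the mean ± SD beside the points (n = 4 each). The groups are apart in 12 of the 13 panels, narrowly for Klhl38, where tumor library 4 had 61.1 CPM and control library 4 had 60.9 CPM, and they overlap for Klhl5.

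The thin filament adaptor Kbtbd13 showed the steepest fall of the 65 genes. Kbtbd13 protein binds actin filaments, and human mutations in it slow muscle relaxation. It had 7.14, 4.87, 4.56 and 3.39 CPM in the tumor libraries and 22.1, 17.3, 18.0 and 24.2 CPM in the controls. The highest tumor value was under the lowest control value by a wide margin, a fall of 4.09-fold (log2 fold change -2.03 ± 0.23, adjusted p = 0.0024, edgeR). The fall kept its call in each of the 17 alternative fits, with a log2 fold change between -2.25 and -1.90. Kbtbd3 had 1.61, 1.40, 1.99 and 1.95 CPM in tumor mice and 2.61, 3.71, 3.01 and 3.15 CPM in controls, without overlap (log2 fold change -0.84 ± 0.23, adjusted p = 0.0301, edgeR). Its call was lost without any control library, or without tumor libraries 1 or 3 (adjusted p from 0.0534 to 0.0948). These were the 2 calls among 8 KBTBD genes (25%, where 8.73% of all genes fell), and no KBTBD gene rose. Kbtbd12, a muscle-enriched gene, had 31.4 to 36.0 CPM in tumor mice and 30.4 to 48.0 CPM in controls (log2 fold change -0.24 ± 0.14, adjusted p = 0.268, edgeR). Kbtbd2, whose protein in mice targets the p85alpha subunit of PI3 kinase, had 14.6 to 18.3 CPM in tumor mice and 17.3 to 20.9 CPM in controls, with a log2 fold change of -0.21 ± 0.12. Kbtbd4, Kbtbd7, Kbtbd8 and Kbtbd11 had log2 fold changes from -1.15 (Kbtbd11) to 0.03 (Kbtbd8), none past the threshold by the edgeR test. Summed over the family, tumor libraries held 74.7 to 78.7 CPM and controls 100.7 to 107 CPM. Much of this difference was Kbtbd13 alone, with means of 4.99 CPM in tumor mice and 20.4 CPM in controls.

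The 32 KLHL genes moved in both directions, 3 higher and 3 lower (9.38% each, where 11% and 8.73% of all genes did so). Klhl38, a muscle-enriched gene, rose the most. It had 145, 148, 154 and 61.1 CPM in tumor mice and 25.8, 23.8, 48.4 and 60.9 CPM in controls, a rise of 3.20-fold (log2 fold change 1.68 ± 0.37, adjusted p = 0.0148, edgeR). Tumor library 4 lay far below the other tumor libraries and level with the highest control, and with control library 1 left out it missed the threshold (adjusted p = 0.0526). Exons of Klhl38 share 1446 bases (65.4% of its exon length) with the antisense gene Gm15943, which had 37 to 67 counts in tumor libraries and 5 to 10 in controls. Klhl38 itself had 2128 to 4791 counts in tumor libraries and 720 to 1682 in controls, and the strand setting of the counting is not given in the sources used here. Klhl22, whose protein targets the mTORC1 regulator DEPDC5 in human cells, had 34.7, 45.7, 34.4 and 25.5 CPM in tumor mice and 20.8, 21.6, 23.7 and 21.2 CPM in controls. Its groups were apart, with tumor library 4 nearest to the controls (log2 fold change 0.68 ± 0.16, adjusted p = 0.0205, edgeR). Klhl22 missed the threshold when control 1, control 2 or tumor 3 was left out (0.0563 to 0.0699 for the adjusted p). Klhl5 had 5.75 to 11.9 CPM in tumor mice and 3.88 to 5.79 CPM in controls, with an overlap of tumor library 2 and control library 3. It rose 1.85-fold (log2 fold change 0.89 ± 0.26, adjusted p = 0.0432, edgeR), and it missed the threshold when any control, or tumor 3 or 4, was left out (0.0621 to 0.127 for the adjusted p). Klhl5 also missed it with upper-quartile scaling, limma-voom, the replicate block and the Myh4 covariate.

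Of the KLHL genes that fell, Klhl23 fell the most. It had 5.79, 6.26, 3.95 and 2.96 CPM in tumor mice and 18.6, 20.3, 16.5 and 20.4 CPM in controls. The groups were far apart, a fall of 4.00-fold (log2 fold change -2.0 ± 0.23, adjusted p = 0.00242, edgeR), and it was called in all 17 alternative fits. Klhl25, whose human protein targets the translation repressor 4E-BP1 with Cul3, had 2.57, 1.17, 1.86 and 2.50 CPM in tumor mice and 5.19, 4.37, 4.43 and 2.64 CPM in controls. Control library 4 lay close to the tumor values, and the fall was 2.05-fold (log2 fold change -1.04 ± 0.31, adjusted p = 0.0419, edgeR). It missed the threshold when control 1, 2 or 3, or tumor 2 or 3, was left out (0.0521 to 0.125 for the adjusted p). Klhl17, an actin-binding Kelch protein known from neurons, had 6.06, 4.61, 5.08 and 5.83 CPM in tumor mice and 8.53, 8.17, 8.74 and 6.99 CPM in controls (log2 fold change -0.59 ± 0.15, adjusted p = 0.0264, edgeR). Its estimated counts were not whole in 5 of 8 libraries, so its value is less certain, and it missed the threshold when control 1, 2 or 3, or tumor 3, was left out (0.0698 to 0.0841 for the adjusted p).

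The Kelch genes best known from muscle were mostly not past the threshold, although tumor library 4 stood apart in several. Klhl40 and Klhl41 proteins stabilise the thin filament proteins nebulin and leiomodin 3. Klhl40 had 116, 115, 168 and 312 CPM in tumor mice and 109, 124, 128 and 100.1 CPM in controls. Tumor libraries 3 and 4 exceeded every control and tumor libraries 1 and 2 lay within their range (log2 fold change 0.62 ± 0.30, adjusted p = 0.175, edgeR). Klhl41 had 468, 487, 483 and 713 CPM in tumor mice and 407, 398, 451 and 536 CPM in controls, with tumor library 4 alone above every control (log2 fold change 0.26 ± 0.18, adjusted p = 0.326, edgeR). Klhl31, whose loss in mice causes a myopathy with raised filamin C, had 444, 269, 356 and 204 CPM in tumor mice and 447, 516, 653 and 411 CPM in controls. Tumor library 1 fell within the control range and the other 3 lay below it (log2 fold change -0.67 ± 0.25, adjusted p = 0.0848, edgeR). It passed without tumor library 1 (adjusted p = 0.0347), by DESeq2 (adjusted p = 0.0273) and with the Myh4 ratio as a covariate (adjusted p = 0.0141).

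Klhl30 had 79.4 to 128 CPM in tumor mice and 62.9 to 90.5 CPM in controls (log2 fold change 0.40 ± 0.17, adjusted p = 0.135, edgeR), and it passed without tumor library 1 (adjusted p = 0.048). Klhl33 had 73.3 to 171 CPM in tumor mice and 129 to 190.4 CPM in controls, with tumor library 4 the lowest of all (log2 fold change -0.31 ± 0.24). Klhl34 had 1.94, 7.43, 2.54 and 1.84 CPM in tumor mice and 6.23, 3.97, 0.839 and 26.2 CPM in controls. In each group it was highest in the library with the lowest Myh4 share, tumor library 2 and control library 4, and its difference of -1.43 ± 0.87 on the log2 scale (adjusted p = 0.270, edgeR) became 0.05 with the Myh4 ratio as a covariate. Klhl21, whose protein acts on Aurora B in dividing human cells, had 177 to 268 CPM in tumor mice and 146 to 236 CPM in controls (log2 fold change 0.31 ± 0.19). Klhl24, whose human mutation causes skin fragility through loss of keratin 14, had 114 to 207 CPM in tumor mice and 130.1 to 172 CPM in controls. Its log2 fold change of 0.12 ± 0.18 turned to -0.06 without tumor library 2, and its estimated counts were not whole in 6 libraries. Klhl3, the adaptor of WNK kinases in the kidney, had 0.775 to 1.59 CPM in tumor mice and 0.761 to 1.41 CPM in controls (log2 fold change -0.08 ± 0.34).

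**Figure D3:**
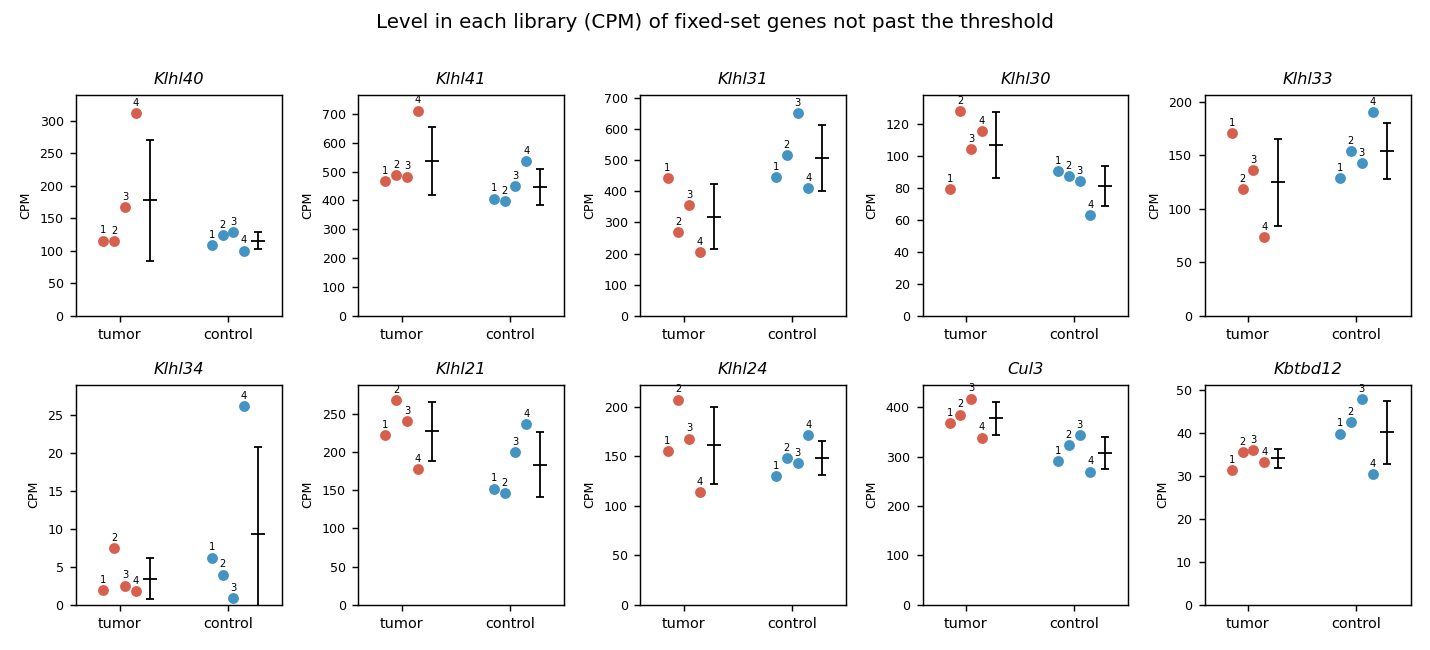
Level in CPM in each library of 10 genes that were not past the threshold, tumor left and control right, with replicate numbers and the mean ± SD (n = 4 each). Tumor library 4 is the highest tumor library for Klhl40 (312 CPM) and Klhl41 (713 CPM) and the lowest for Klhl31 (204 CPM) and Klhl33 (73.3 CPM), and control library 4 stands apart for Klhl34 (26.2 CPM).

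The remaining KLHL genes had smaller or more scattered differences. Klhl18, whose human protein acts on Aurora A, had 10.7 to 12.2 CPM in tumor mice and 12.9 to 15.3 CPM in controls. Its groups did not overlap, yet the difference missed the threshold (log2 fold change of -0.30 ± 0.11 with adjusted p = 0.086, edgeR). Klhl8 had 20.3 to 35.0 CPM in tumor mice and 31 to 53.1 CPM in controls (log2 fold change -0.55 ± 0.20, adjusted p = 0.0868, edgeR). It was called with the Myh4 ratio as a covariate (adjusted p = 0.0052) and by DESeq2 (adjusted p = 0.0487). Klhl4, with a large but uncertain difference, had 0.162 to 0.459 CPM in tumor mice and 0.376 to 1.27 CPM in controls (log2 fold change -1.28 ± 0.49, adjusted p = 0.094, edgeR). Klhl12, the adaptor that acts on the COPII coat protein SEC31 in human cells, had 24.5 to 26.3 CPM in tumor mice and 22.9 to 32.2 CPM in controls (log2 fold change -0.01 ± 0.13). Klhl9, an Aurora B adaptor in human cells, had 44.2 to 58.2 CPM in tumor mice and 44.5 to 55.8 CPM in controls (log2 fold change -0.02 ± 0.13). Over all 32 genes the median log2 fold change was -0.12. Their summed level overlapped, at 2003 to 2070 CPM in tumor libraries and 1760 to 2153 CPM in controls.

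Of the 17 KCTD genes, 1 rose and 1 fell (11.8% called, where 19.8% of all genes were). Kctd9 had 60.5, 91.8, 83.2 and 84.4 CPM in tumor mice and 52.0, 57.9, 57.4 and 58.2 CPM in controls. Tumor library 1 was the only tumor library near the controls, and the rise was 1.42-fold (log2 fold change 0.50 ± 0.14, adjusted p = 0.0325, edgeR). With single libraries left out this call was the least stable: it held without tumor library 1 and was lost without any other library (adjusted p from 0.0536 to 0.104). Over all 17 alternative fits, Kctd9 and Klhl5 were each called in 7, the fewest of the 13 called genes. Kctd12b, a relative of the GABA-B receptor subunit Kctd12, had 0.593, 1.20, 0.353 and 0.947 CPM in tumor mice and 3.69, 2.51, 2.31 and 2.64 CPM in controls. These were 11 to 37 counts in tumor libraries and 73 to 106 in controls, far apart, a fall of 3.59-fold (log2 fold change -1.84 ± 0.38, adjusted p = 0.0114, edgeR) that was called in all 17 alternative fits. Kctd12 itself had 4.43 to 6.19 CPM in tumor mice and 4.85 to 8.18 CPM in controls (log2 fold change -0.26 ± 0.21).

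Among KCTD genes with known targets, Kctd10 and Kctd13 encode Cul3 adaptors that act on the GTPase RhoA in human cells. Kctd10 had 8.03 to 9.54 CPM in tumor mice and 9.06 to 15.5 CPM in controls, with only control library 2 inside the tumor range (log2 fold change -0.51 ± 0.17, adjusted p = 0.0607, edgeR). It passed without control library 2 (adjusted p = 0.0352), with upper-quartile scaling (adjusted p = 0.0352), with a stricter count filter (adjusted p = 0.046) and by DESeq2 (adjusted p = 0.0416). Kctd13 had 2.73 to 4.80 CPM in tumor mice and 1.85 to 3.41 CPM in controls (log2 fold change 0.33 ± 0.27). Kctd15, an inhibitor of the AP-2 transcription factors, had 43.3 to 65.4 CPM in tumor mice and 54.2 to 89.6 CPM in controls (log2 fold change -0.35 ± 0.19), and it was called with the Myh4 ratio as a covariate (edgeR adjusted p = 0.0221). Kctd20 had 90.5, 60.1, 86.3 and 38.4 CPM in tumor mice and 36.0, 53.0, 48.5 and 43.2 CPM in controls, so 3 tumor libraries lay above every control and tumor library 4 within the control range (log2 fold change 0.61 ± 0.25, adjusted p = 0.119, edgeR; adjusted p = 0.0196 when tumor 4 was left out). Kctd17, with 4.11 to 5.81 CPM in tumor mice and 5.22 to 9.61 CPM in controls, missed the threshold at a difference of -0.66 ± 0.22 in log2 units (edgeR adjusted p = 0.0647). Kctd17 was called when control 4 was left out (adjusted p = 0.0304), when tumor 2 was left out (adjusted p = 0.0494), with both left out (adjusted p = 0.0181), with upper-quartile scaling (adjusted p = 0.0476) and by DESeq2 (adjusted p = 0.0348). The other KCTD genes had log2 fold changes between -0.84 (Kctd1) and 0.15 (Kctd18). The summed level of the 17 genes overlapped, at 243.0 to 299.5 CPM in tumor libraries and 243.4 to 281.6 CPM in controls.

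Levels were also set per length, as CPM per kilobase of exon, for 64 of the 65 genes. Klhl41 had the highest level in both groups, with means of 212.5 CPM per kilobase in tumor mice and 177 CPM per kilobase in controls. Cul3 had 77.4 CPM per kilobase in tumor mice and 63.0 in controls, and no other cullin reached 31 CPM per kilobase in either group. Klhl38 had 57.4 CPM per kilobase in tumor mice, the fourth highest of the 64, and 18.0 in controls, the ninth. Klhl31 had 49.0 CPM per kilobase in tumor mice, the sixth highest, and 78.1 in controls, where it was exceeded by Klhl41 alone. Kbtbd13 had 1.68 CPM per kilobase in tumor mice and 6.87 in controls. Exon lengths came from a GRCm38 annotation, whereas the counts were made on GRCm39.

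**Figure D4:**
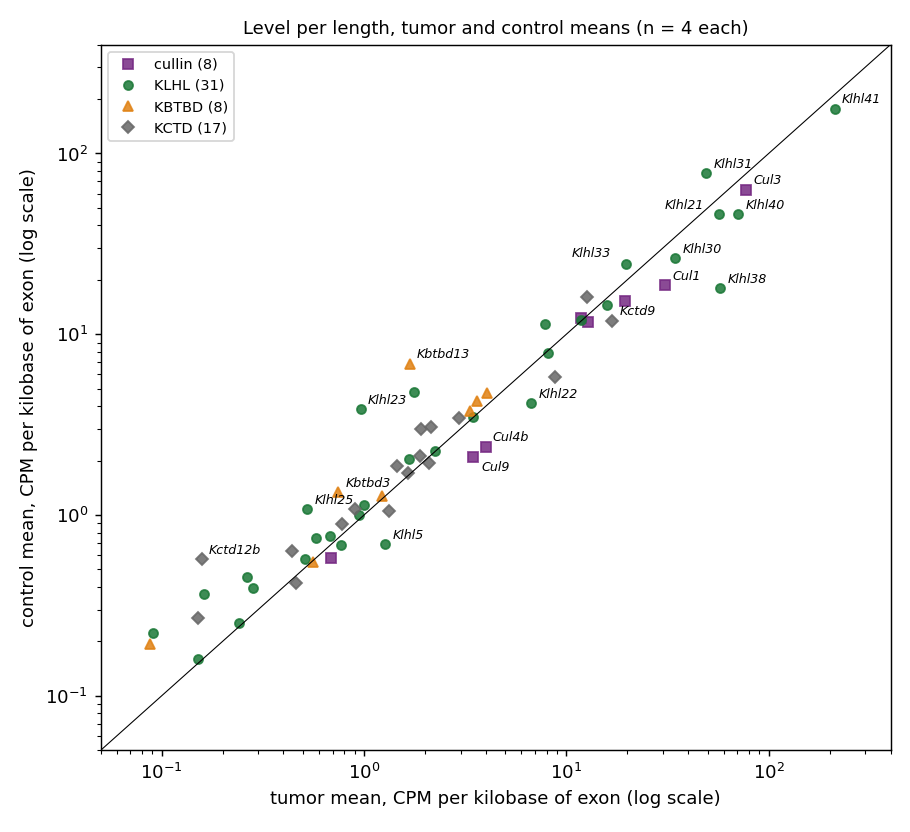
Mean level per length of 64 genes, tumor on the horizontal and control on the vertical axis, in CPM per kilobase of exon on log scales, with the line of equal levels. Kbtbd13, Klhl23 and Kctd12b lie farthest above the line (higher in controls), and Klhl38 lies farthest below it (57.4 in tumor mice and 18.0 in controls).

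Cullin ligases also need the small modifier NEDD8, its transfer enzymes, the COP9 signalosome that removes it, and shared linkers. Of 31 such genes, 7 rose and none fell by the edgeR test (22.6% higher, where 11% of all genes rose). An unadjusted p under 0.05 was found in 9 of the 31, a smaller share than over all 14070 genes, of which 4924 had one. The median log2 fold change of the 31 genes was 0.14. The signalosome subunits Cops2, Cops3, Cops4 and Cops5 rose. Cops5, the subunit that cleaves NEDD8 off cullins, had 98.2, 111, 129 and 162 CPM in tumor mice and 77.3, 84.1, 82.6 and 73.6 CPM in controls, without overlap (log2 fold change 0.66 ± 0.16, adjusted p = 0.0207, edgeR). Cops3 rose 1.40-fold, to 79.0 ± 7.79 CPM in tumor mice, against 56.6 ± 1.48 CPM in controls (SD, n = 4 each, edgeR adjusted p = 0.0152). Ddb1, the linker of Cul4a and Cul4b, rose 1.67-fold, to 276 ± 45.8 CPM in tumor mice, against 165 ± 14 CPM in controls (adjusted p = 0.0103, edgeR). Nub1, which sends NEDD8 conjugates to the proteasome, rose 1.85-fold, to 73.1 ± 10.1 CPM in tumor mice, against 39.4 ± 4.76 CPM in controls (adjusted p = 0.00438, edgeR). Skp1, the linker of Cul1 to F-box proteins, also rose. The RING genes Rbx1 and Rnf7 had log2 fold changes of 0.00 ± 0.12 and -0.05 ± 0.10, and Nedd8 had 0.10 ± 0.11. The count of 7 was 2 when control 1, control 2 or tumor 3 was left out, where 4.4%, 5.3% and 4.94% of all genes were called higher. Cops5 and Cops3 lost their calls in each of these fits (adjusted p from 0.0516 to 0.0691).

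**Figure D5:**
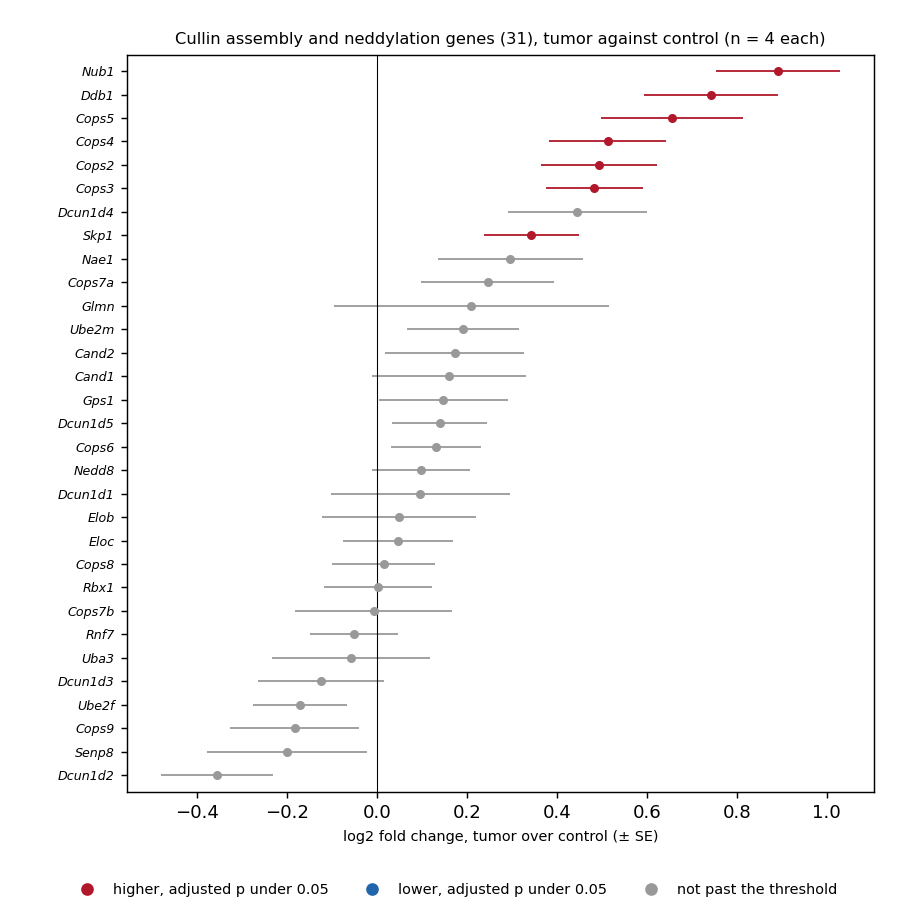
Log2 fold change, tumor over control, of 31 cullin assembly and neddylation genes, with bars of 1 standard error (n = 4 each). The 7 red points, Nub1 (0.89) to Skp1 (0.34), are the genes that rose, and no gene fell past the threshold.

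Of 22 BTB genes with other symbols, 1 rose (4.55%, where 11% of all genes rose) and 2 fell (9.09%, where 8.73% of all genes fell). Keap1, the Kelch adaptor of Cul3 that holds down the transcription factor NRF2, had 134, 179, 164 and 151 CPM in tumor mice and 97.2, 104, 108 and 104 CPM in controls, without overlap (log2 fold change 0.60 ± 0.12, adjusted p = 0.0102, edgeR). Of 9 tested genes of the NRF2 list, 2 rose (22.2%, where 11% of all genes rose) and none fell by the edgeR test. An unadjusted p under 0.05 was found in 3 of the 9, a share close to that over all 14070 genes, of which 4924 had one. The genes that rose were Nfe2l2, which encodes NRF2 itself (47.2 ± 11.4 CPM in tumor mice and 28.1 ± 5.96 CPM in controls, SD, n = 4 each), and Gclc, of glutathione synthesis (18.6 ± 2.81 CPM in tumor mice and 13.2 ± 1.06 CPM in controls). Both missed the threshold when control 1 or 2, or tumor 2 or 3, was left out (0.0516 to 0.0993 for the adjusted p), among others. The share of 22.2% thus includes the gene of NRF2 itself, and Gclc was the only other gene of the list that rose.

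Among 11 thin filament and Z-disc partners of the muscle Kelch proteins, 2 rose (18.2%, where 11% of all genes rose) and 1 fell (9.09%, where 8.73% of all genes fell). Nrap, which links actin to the membrane at the myotendinous junction, rose to 5150 ± 1675 CPM in tumor mice, against 1789 ± 870.0 CPM in controls (SD, n = 4 each; edgeR adjusted p = 0.0211). Flnc, the filamin that Klhl31 acts on in mice, rose 2.57-fold (adjusted p = 0.025, edgeR), and the skeletal actin gene Acta1 fell 2.35-fold (adjusted p = 0.0368, edgeR). All 3 missed the threshold when control 1, 2 or 3, or tumor 3, was left out (0.0547 to 0.104 for the adjusted p). Neb, the nebulin that Klhl40 stabilises, had 12444 ± 1700 CPM in tumor mice and 7952 ± 745 CPM in controls without overlap (log2 fold change 0.65 ± 0.20, adjusted p = 0.0502, edgeR). Lmod3 had 141 ± 92.3 CPM in tumor mice and 149.9 ± 44.9 CPM in controls (log2 fold change -0.09 ± 0.39).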

How the data were processed

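RNA from the quadriceps of 8 mice was sequenced as 8 libraries; the labels' protocols name the RNeasy Mini Kit for RNA and Universal Plus mRNA-Seq for libraries. The authors deposited 1 table of estimated counts per gene symbol, in which 9% of values were not whole. The submitters' processing notes list Salmon 1.10.1, STAR 2.7.9a, R 4.2.2, Trim Galore 0.6.7 and cutadapt 3.4, and the build GRCm39. What each tool did, and which annotation was used, is not given in the sources used here. Estimated counts divide reads that match several genes, which makes genes with near copies or overlaps less certain.

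Groups came from the sample titles and columns from the library names. Counts were rounded. Genes were kept by filterByExpr (minimum count 10), scaled by TMM and tested two-sided with edgeR 4.0.16 in R 4.3.3 (quasi-likelihood F test), with group as the only term and Benjamini-Hochberg adjustment over 14070 genes (threshold 0.05). A standard error is the size of the log2 fold change over the root of its F statistic. The depth, 28436205 to 36139462 counts per library, is given in the text; intervals between groups cover the spread between mice. Within each group the libraries differed beyond sampling noise. Alternatives used other scalings and count filters, DESeq2 1.42.0, limma-voom (limma 3.58.1), the replicate number as a block, a covariate (Myh4 over Myh1, Myh2 and Myh7 summed, as log2), and left-out libraries. The steps were tested on simulated counts.

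Named were all called genes, a fixed set of cullin and muscle genes, the 2 uncalled genes with the largest change (Klhl34 and Klhl4), and up to 4 genes per further list; Kbtbd2, Kbtbd4, Kbtbd7, Kbtbd8, Kbtbd11, Klhl8, Klhl9, Klhl12, Klhl18, Kctd12, Kctd15, Kctd17, Kctd20 and a few list genes (Cops2, Cops4, Skp1, Rbx1, Rnf7, Nedd8, Neb, Lmod3) were added after their values were seen. Genes and lists were chosen with earlier results of these data known. Promoters are from RefSeq (GRCm38.p6), matched by symbol. The BTB genes with other symbols that fell are counted, and their values are not reported here.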

Additional observations from a re-analysis of the deposited data

Results flagged for a closer look

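In 8 of 86 groups of 4 libraries, a library lay farther from the others than the 95% critical value of Dixon's ratio allows, a check that marks about 1 in 20 groups by chance. Among tumor mice, Klhl38 had 61.1 CPM in library 4, where the others had 145 to 154 CPM, and Klhl41 had 713 CPM in library 4, where the others had 468 to 487 CPM. Tumor library 1 had 108 CPM of Cul4a, where the others had 130.1 to 132 CPM, and 2659 CPM of Nrap, where the others had 5790.3 to 6277 CPM. Tumor library 2 had 7.43 CPM of Klhl34, where the others had 1.84 to 2.54 CPM, and 4.80 CPM of Kctd13, where the others had 2.73 to 2.93 CPM. Among controls, Kctd9 had 52.0 CPM in library 1, where the others had 57.4 to 58.2 CPM, and Nrap had 3084 CPM in library 4, where the others had 1213 to 1486 CPM.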

How the results depend on the processing

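Over the 43 genes named by rule and 17 alternatives, 17 genes lost a call in at least 1 fit, 4 gained one and 4 uncalled genes changed sign. Kbtbd13, Klhl23, Cul9, Cul1 and Kctd12b were called in all 17 fits. With 1 library left out, or control 4 and tumor 2 together, the log2 fold change of Cul5 ranged from -0.12 to 0.02 (above 0 when control 3 was left out), that of Klhl24 from -0.058 to 0.247 (below 0 when tumor 2 was left out) and that of Klhl3 from -0.337 to 0.053 (above 0 when control 1, control 4 or tumor 4 was left out, at 0.004, 0.028 and 0.053). With the Myh4 covariate it was 0.046 for Klhl34 and 0.068 for Klhl3. Leaving out 1 library at a time gave 630 to 1551 higher and 480 to 1450 lower genes in all, and 2 to 9 higher and 3 to 6 lower among the 65. By family it gave 2 to 4 higher cullins, 0 to 4 higher and 1 to 4 lower KLHL genes, 1 to 2 lower KBTBD genes, and 0 to 1 higher and 1 to 2 lower KCTD genes. For assembly and neddylation genes it gave 2 to 8 higher and 0 to 1 lower. A replicate block in the fit gave 1014 higher genes in all, 4 higher assembly genes, 1 lower KBTBD gene and 0 higher KCTD genes. Without a count filter, and without control library 4 and tumor library 2 together, 1 KBTBD gene was lower and 0 KCTD genes higher. DESeq2 gave 10 lower among the 65, 5 of them KLHL and 3 KCTD genes. It called more genes of every kind, 27.7% of the 65 and 26.6% of all genes, where the main fit called 20% and 19.8%. The Myh4 covariate gave 5 lower KLHL and 2 lower KCTD genes, and it called 24.6% of the 65 and 21.5% of all genes. Lower KCTD genes numbered 3 with upper-quartile scaling and 2 with the stricter filter or without control library 4 and tumor library 2. Upper-quartile scaling, the stricter filter, DESeq2 and the Myh4 covariate each gave 1 lower assembly gene. Of the genes added after their values were seen, Kctd15, Kctd17, Kctd20 and Klhl8 gained calls, 10 in all. Klhl8 also did so with the replicate block (adjusted p = 0.0486). The cause was not tested. Same-numbered tumor and control libraries correlated in their deviations from the group means at 0.028, 0.131, 0.197 and 0.016, so the numbers were not taken to pair the mice. Genes under about 1 CPM, such as Klhl4, and Kctd12b in tumor mice, rest on few counts.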
